A study of Mus musculus with 12 samples.

Results

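The unfolded protein response and the integrated stress response were followed through 40 genes, all of which were listed in both deposited tables, of 27321 genes that the tables shared. The members were a list of names from the 2 pathways, drawn up with earlier results of these data known. They comprised 2 kinases that phosphorylate the initiation factor eIF2 together with the phosphatase subunit that reverses it, 7 transcription factors and regulators of the integrated stress response, 7 of its metabolic targets, 3 sensors and factors of the endoplasmic reticulum (ER), 14 ER chaperones and folding enzymes, 5 genes of ER-associated degradation, and *Casp12*.

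Unfolded proteins in the ER are sensed by PERK, IRE1 and ATF6, which slow translation, splice the messenger of *Xbp1* and release a transcription factor, respectively. PERK shares its target, eIF2, with GCN2 and the other kinases of the integrated stress response, and phosphorylated eIF2 favours the translation of ATF4, which turns on amino acid and redox genes. In ischemic brain tissue both responses are known to be engaged by the loss of oxygen, glucose and ATP. Most of the early steps are changes in protein phosphorylation, splicing or translation that a gene-level RNA measurement does not report, so the members are read here as messenger levels only.

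RNA-seq had been run on primary brain endothelial cells (BECs) cultured from the brain microvasculature of C57BL/6 mice, either wild-type (Cort+/+) or lacking the neuropeptide cortistatin (Cort-/-), each replicate being a pool of 3 mice. The cells were kept for 24 h in normoxia and normoglycaemia (NX/NG, 21% oxygen) or were deprived of oxygen and glucose for 4 h at 1% oxygen and then reoxygenated for 20 h (OGD-R). The tables held 3 Cort+/+ and 2 Cort-/- libraries in each environment, and the third Cort-/- culture listed for either environment was not analysed here. The labels also name an ischemic stroke model as the disease state of every sample, although the deprivation was done in culture. Each environment was deposited as a table of its own, so that environment and table cannot be told apart.

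The reads on genes recovered from the deposited values totalled between 12386048 and 12390428 in each library. The paper reports a higher average number of paired-end reads. Why the totals were so even is not stated, so they may not be the depth sequenced. *Cort* had at most 2 reads in any library, below the floor of 3 reads, so the genotype labels could not be checked from it. Endothelial transcripts (*Cdh5*, *Pecam1*, *Cldn5* and 5 others) were abundant, with a summed level of 989 to 1233 RPKM (reads per kilobase of gene, scaled for library size over all 10 libraries) in Cort+/+ and 1261 to 1399 RPKM in Cort-/- under NX/NG, and of 1018 to 1115 RPKM against 1089 to 1356 RPKM after OGD-R. Smooth muscle and pericyte transcripts summed to 978 to 1823 RPKM, nearly all from *Acta2* and *Tagln*. In the deposited RPKM, scaled within each environment, *Pdgfrb* was at 5.17 to 15.4 RPKM and *Cspg4* at 0.679 to 5.15 RPKM. On that scale *Rgs5* was at 0.983 to 3.53 RPKM and *Kcnj8* at 0 to 0.0353 RPKM. The 6 fibroblast transcripts, mostly collagens, summed to 198 to 285 RPKM in Cort+/+ and 86.0 to 124 RPKM in Cort-/- under NX/NG, and to 225 to 333 RPKM against 194 to 245 RPKM after OGD-R. Epithelial transcripts summed to 1.39 to 50.9 RPKM and macrophage transcripts to 2.66 to 4.14 RPKM. Ribosomal RNA was read from the entry *Rn18s-rs5* alone. It took 0.0951% of the reads of Cort-/- OGD-R replicate 3 and 0.0775% of those of Cort+/+ OGD-R replicate 1, but 7.64% to 15.8% in the other 8 libraries. Because these were bulk cultures, fewer cells of a type and less RNA per cell cannot be told apart.

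The promoters of some members carry sequence elements through which the 2 responses are known to act, and these are shown to set the members' regulatory sequence beside their levels. RefSeq promoters on GRCm38.p6, from 250 bases before to 50 bases after the start of a gene, were found for 37 of the 40 members, with none for *Atf6*, *Manf* and *Hyou1*. The ER stress element, to which ATF6 and XBP1 are known to bind, was searched on both strands as CCAAT, any 9 bases and CCACG, and it occurred in 9 of the 37 members (24.3%) against 37 of 27025 genes (0.137%) with a promoter. Of the 12 folding genes with a promoter, 7 held it, namely *Hspa5*, *Hsp90b1*, *Pdia6*, *Dnajc3*, *Creld2*, *Calr* and *Canx*, and so did *Syvn1* and *Derl3* among the degradation genes. None of the kinases, factors and targets of the integrated stress response did. The members were listed from the pathways in which these elements are known, so the shares describe the list and test nothing. A stretch around the element is given 5′ to 3′ on the strand of the gene, with the element in capitals, for *Hspa5*, *Hsp90b1*, *Calr*, *Canx* and *Pdia6* as abundant folding genes and for *Syvn1* as a degradation gene.
Hspa5, chr2:34772013-34772055, plus strand: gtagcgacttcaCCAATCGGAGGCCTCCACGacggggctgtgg
Hsp90b1, chr10:86705626-86705668, minus strand: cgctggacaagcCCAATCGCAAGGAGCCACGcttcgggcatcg
Hsp90b1, chr10:86705521-86705563, minus strand: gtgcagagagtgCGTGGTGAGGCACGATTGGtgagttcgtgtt
Calr, chr8:84847063-84847105, minus strand: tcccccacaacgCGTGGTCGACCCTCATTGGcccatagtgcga
Canx, chr11:50325788-50325830, minus strand: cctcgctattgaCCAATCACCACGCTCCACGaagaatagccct
Pdia6, chr12:17266479-17266521, plus strand: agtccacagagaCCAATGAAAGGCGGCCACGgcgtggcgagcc
Syvn1, chr19:6046520-6046562, plus strand: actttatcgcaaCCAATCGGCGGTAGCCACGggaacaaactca
*Hsp90b1* held the element 2 times, once in each orientation, and in *Calr* it was read on the opposite strand, where it appears as CGTGG, 9 bases and ATTGG. The shorter relative of the element, ATTGG, any base and CCACG, occurred in *Dnajb11* and *Herpud1*, that is 5.41% of the members with a promoter against 0.0444% of all genes. The element TGACGTGG, known to be bound by XBP1, was in no member promoter and in 0.714% of all genes.

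The C/EBP-ATF element, through which ATF4 is known to act, was searched as TGATGNAA on both strands and occurred in 5 members (13.5%), *Trib3*, *Nupr1*, *Asns*, *Chac1* and *Herpud1*, against 4.51% of all genes. Its letters are shorter than those of the ER stress element, so the background was higher. The stretches are given for the 3 of these genes that the comparisons turn on and for *Herpud1*, which held elements of both kinds.
Asns, chr6:7693213-7693244, minus strand: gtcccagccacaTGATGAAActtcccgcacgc
Chac1, chr2:119351037-119351068, plus strand: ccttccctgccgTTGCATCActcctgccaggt
Nupr1, chr7:126625561-126625592, minus strand: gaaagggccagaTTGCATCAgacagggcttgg
Herpud1, chr8:94386305-94386336, plus strand: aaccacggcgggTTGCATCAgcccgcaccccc
Herpud1, chr8:94386365-94386399, plus strand: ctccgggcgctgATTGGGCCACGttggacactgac
In *Chac1*, *Nupr1* and *Herpud1* the element lay on the opposite strand and reads TTGCATCA. A match describes the letters of the window only and is neither a measured binding site nor a cause of the levels below.

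BECs expressed the members at levels that spanned the table. *Calr*, *Pdia3*, *Hsp90b1*, *Hspa5* and *Canx*, all chaperones or folding enzymes of the ER, were the 5 members above 100 RPKM on average, and *Calr* ranked 147 of 27321 genes. Another 21 members averaged 10 to 100 RPKM and 13 averaged 1 to 10 RPKM. *Derl3*, a degradation factor found mainly in secretory cells, had only 1 to 11 reads per library and a mean of 0.16 RPKM. For the other 39 members the reads per library ranged from 54 to 10698.

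**Figure D1:**
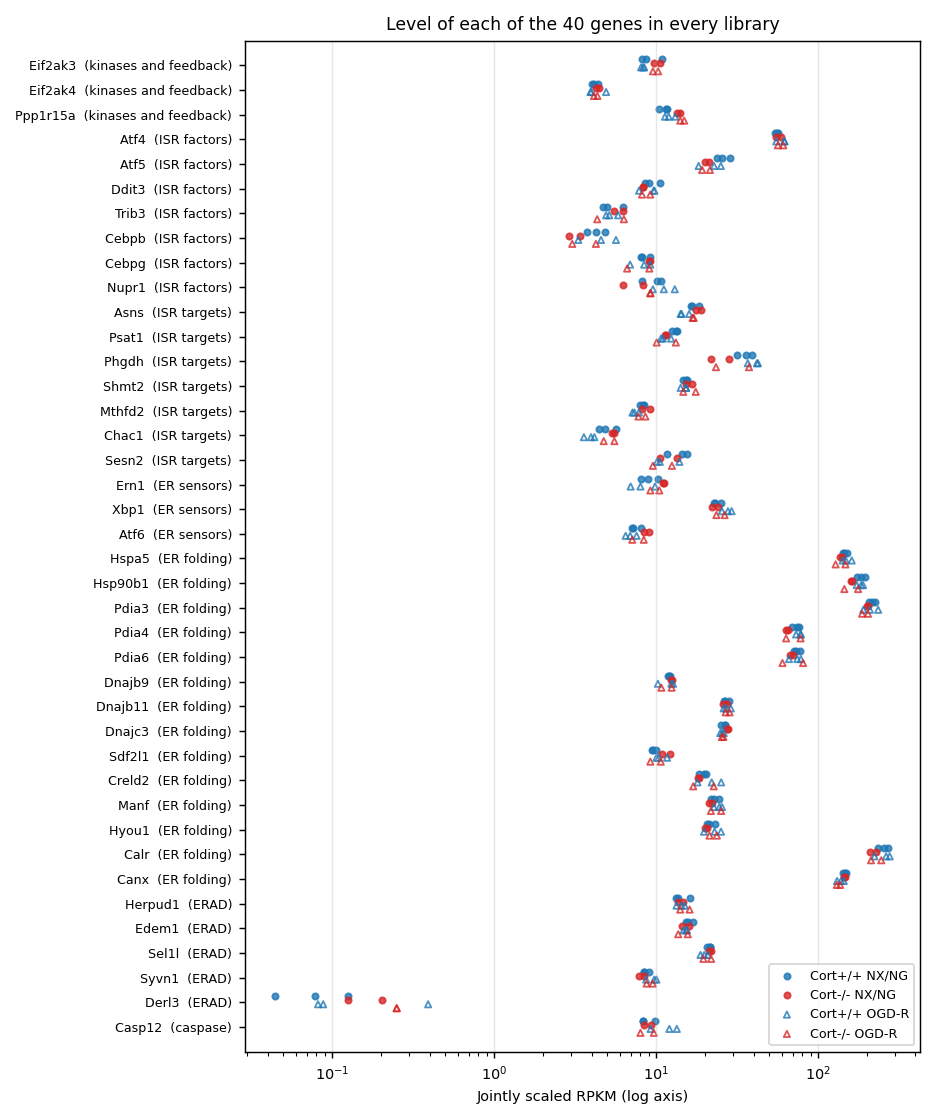
Level of each of the 40 genes in the 10 libraries, in jointly scaled RPKM on a log axis, 1 row per gene with its role in parentheses; blue is Cort+/+, red is Cort-/-, filled circles are NX/NG and open triangles are OGD-R. The 5 folding genes above 100 RPKM and Derl3, at 0.16 RPKM, mark the ends of the range, and within a gene the 4 groups lay close together.

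Across the 10 libraries the members varied little. Setting *Derl3* aside, the highest library exceeded the lowest by 1.11 times in *Dnajb11*, an ER co-chaperone, up to 2.07 times in *Nupr1*, a stress-induced nuclear protein. In 31 of these 39 genes the ratio was below 1.5. *Phgdh*, *Cebpb* and *Nupr1* had the widest spread, and their highest and lowest libraries are given with the comparisons below.

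For each comparison a limma model was fitted to log2(RPKM + 0.1) of all genes, and a gene was called at a false discovery rate (FDR) of at most 0.05 by the Benjamini-Hochberg method. No member was called in any of the 7 comparisons, nor with limma-voom on the recovered reads. Over all genes limma called 0% under NX/NG and 0% after OGD-R between the genotypes, 0.0332% between environments in Cort+/+ and 0% in Cort-/-, 0.011% for the genotype-by-environment interaction, 0.0549% for the genotype averaged over both environments and 0.022% for OGD-R averaged over both genotypes. Members at an unadjusted p below 0.05 are therefore described with their values and are not called changed. Fold changes are differences on the log2(RPKM + 0.1) scale throughout.

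The sensors and effectors that are most often used to read the 2 responses differed little between the 4 groups. *Hspa5*, the chaperone BiP that holds the sensors inactive, stood at 144, 151 and 143 RPKM in Cort+/+ and 140 and 137 RPKM in Cort-/- under NX/NG, and at 149, 162 and 142 RPKM against 129 and 148 RPKM after OGD-R. Both Cort-/- libraries were below the 3 Cort+/+ libraries under NX/NG, whereas the groups overlapped after OGD-R. The log2 fold change for OGD-R averaged over genotypes was 0.02, with a 95% confidence interval from -0.13 to 0.17 (limma FDR 0.982).

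*Atf4*, the central factor of the integrated stress response, was at 56.5, 54.5 and 55.6 RPKM in Cort+/+ and 58.8 and 55.2 RPKM in Cort-/- under NX/NG, and at 61.9, 62.2 and 55.3 RPKM against 56.6 and 61.0 RPKM after OGD-R. All comparisons overlapped, and the averaged difference for OGD-R was 0.07 (interval -0.05 to 0.20, limma FDR 0.802) and that for genotype 0.01 (interval -0.11 to 0.13, limma FDR 0.981). *Ddit3*, which encodes the pro-apoptotic factor CHOP, was at 8.54, 10.6 and 9.09 RPKM in Cort+/+ and 8.26 and 8.32 RPKM in Cort-/- under NX/NG, and at 9.77, 9.68 and 7.85 RPKM against 8.20 and 9.21 RPKM after OGD-R. Only under NX/NG did the Cort-/- libraries lie below all Cort+/+ libraries, by -0.18 (interval -0.45 to 0.09, limma FDR 0.681), and the averaged difference for OGD-R was 0.01 (interval -0.19 to 0.21, limma FDR 1.0).

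In each averaged comparison, for genotype and for OGD-R, the 95% interval of 39 of the 40 members stayed within 1 log2 unit of 0, a 2-fold change, *Derl3* being the exception. For OGD-R in Cort-/- BECs alone the count was 38, since the interval of *Phgdh* ran from -0.50 to 1.03. Any difference that had passed before 20 h of reoxygenation was not measured.

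Between the genotypes under NX/NG, 8 of the 40 members (20%) had an unadjusted limma p below 0.05, against 8.39% of the 29965 genes tested. Among genes reaching 1 RPKM in 2 or more libraries the count was 9 of 39 members (23.1%), against 13.2% of 14220 genes. Of the 8, *Ppp1r15a* and *Sdf2l1* were higher in Cort-/- BECs, and *Atf5*, *Cebpb*, *Psat1*, *Phgdh*, *Hsp90b1* and *Pdia4* were lower. The median log2 fold change was -0.02 over the members and -0.01 over all genes. The lowest FDR among them was 0.382, and limma-voom gave 12 members at an unadjusted p below 0.05, the lowest FDR being 0.0994 for *Phgdh*. The count of 8 was 2 without Cort-/- replicate 1, 1 without Cort-/- replicate 2, 3 without Cort+/+ replicate 1 and 4 without Cort+/+ replicate 2.

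Counted by library, the genotypes did not overlap under NX/NG in 19 of the 39 members with at least 1 RPKM (48.7%), against 32.9% of 14286 such genes. In 13 of them (33.3%) every Cort-/- library was lower, against 15.9% of genes, and in 6 (15.4%) every one was higher, against 17.1%. The 13 comprised the folding genes *Hspa5*, *Hsp90b1*, *Pdia3*, *Pdia4*, *Pdia6*, *Creld2*, *Hyou1* and *Calr*, and *Atf5*, *Ddit3*, *Cebpb*, *Psat1* and *Phgdh*. The 6 were *Ppp1r15a*, *Ern1*, *Atf6*, *Dnajb9*, *Dnajc3* and *Sdf2l1*.

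After OGD-R, 3 of the 40 members (7.5%) had an unadjusted limma p below 0.05 between the genotypes, against 3.42% of 29775 genes, and all 3, *Eif2ak3*, *Ppp1r15a* and *Chac1*, were higher in Cort-/- BECs. With limma-voom none of these 3 had such a p, and the 2 members that did were lower, *Phgdh* at -0.44 (unadjusted p 0.0231) and *Casp12* at -0.38 (unadjusted p 0.0491), both with an FDR of 0.934. Among genes reaching 1 RPKM in 2 or more libraries the count by limma was 2 of 39 members (5.13%), against 3.72% of 14325 genes. The genotypes did not overlap in 5 of 39 members (12.8%), against 16.2% of 14238 genes, with *Eif2ak3*, *Ppp1r15a*, *Asns* and *Chac1* higher and *Nupr1* lower. *Ppp1r15a* was the single member whose genotypes were separated in the same direction in both environments (2.56%), which 7.05% of 13913 genes were. The count of 3 was 1 without Cort-/- replicate 1, 5 without Cort-/- replicate 3, and 1 without Cort+/+ replicate 2 or replicate 3.

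**Figure D2:**
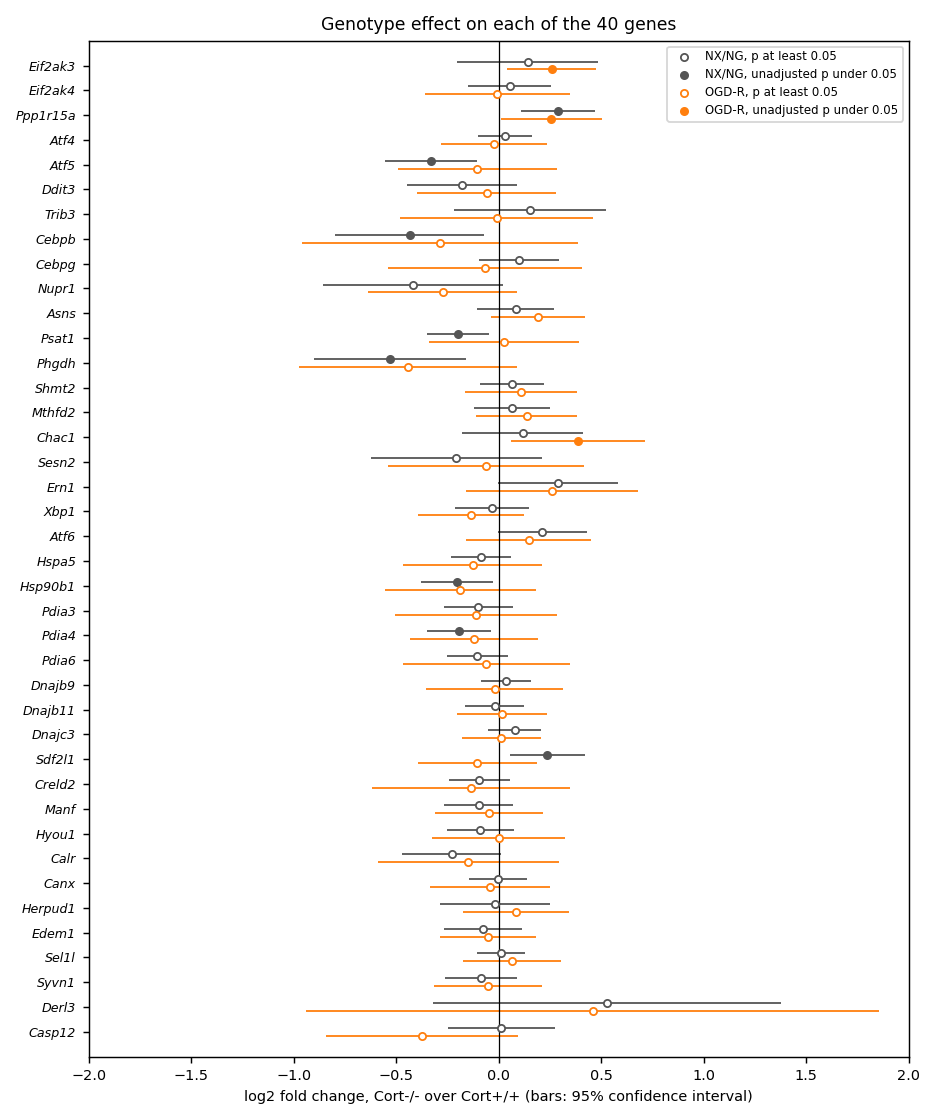
Log2 fold change of Cort-/- over Cort+/+ for each of the 40 genes, under NX/NG (grey) and after OGD-R (orange), with 95% confidence intervals from limma; filled points have an unadjusted p below 0.05. Ppp1r15a is the single gene filled in both environments, at 0.29 and 0.26, and Phgdh lies farthest to the left in both, at -0.53 and -0.44.

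Averaged over both environments, 11 of the 40 members (27.5%) had an unadjusted limma p below 0.05 for genotype, against 10% of 27321 genes. Since low genes seldom reach that p, the count was also read against genes reaching 1 RPKM in 2 or more libraries, where it was 9 of 39 members (23.1%) and 13.7% of 14855 genes. The 11 members were higher in Cort-/- BECs in 6 cases (*Eif2ak3*, *Ppp1r15a*, *Asns*, *Chac1*, *Ern1* and *Atf6*) and lower in 5 (*Atf5*, *Nupr1*, *Phgdh*, *Hsp90b1* and *Pdia4*). This comparison uses the same libraries as the 2 before it and is not a further set of data. The count of 11 was 3 without Cort-/- NX/NG replicate 1, 4 without Cort+/+ NX/NG replicate 1 and 7 without Cort+/+ OGD-R replicate 1. It was 5 when replicate 2 of Cort-/- NX/NG, Cort+/+ NX/NG or Cort+/+ OGD-R, or replicate 1 of Cort-/- OGD-R, was left out.

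Of the 3 eIF2 kinase and phosphatase genes, *Ppp1r15a* and *Eif2ak3* had an unadjusted limma p below 0.05 for the averaged genotype and *Eif2ak4* did not. *Ppp1r15a*, or GADD34, the inducible subunit that directs a phosphatase to eIF2 and so ends the response, was at 10.4, 11.5 and 11.7 RPKM in Cort+/+ and 13.98 and 13.5 RPKM in Cort-/- under NX/NG, and at 11.98, 13.1 and 11.4 RPKM against 14.1 and 14.9 RPKM after OGD-R. All 4 Cort-/- libraries were above all 6 Cort+/+ libraries. The means were 11.2 ± 0.697 (SD, n = 3) and 13.8 ± 0.305 RPKM (n = 2) under NX/NG, and 12.2 ± 0.910 (n = 3) and 14.5 ± 0.574 RPKM (n = 2) after OGD-R. The averaged difference was 0.28 ± 0.0585 (log2, SE; unadjusted p 0.00131, limma FDR 0.178), and over 18 alternative settings it ranged from 0.25 to 0.30 with an FDR from 0.119 to 0.453.

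*Eif2ak3*, which encodes PERK, was at 8.14, 8.72 and 10.8 RPKM in Cort+/+ and 9.78 and 10.5 RPKM in Cort-/- under NX/NG, and at 8.09, 8.32 and 8.46 RPKM against 10.3 and 9.57 RPKM after OGD-R. Only after OGD-R did both Cort-/- libraries exceed every Cort+/+ library, by 0.26 ± 0.0866 (log2, SE; unadjusted p 0.0276, limma FDR 0.978). Cort+/+ NX/NG replicate 3, at 10.8 RPKM, was the highest library of all. *Eif2ak4*, which encodes the amino acid sensor GCN2, ranged from 3.94 to 4.92 RPKM with an averaged genotype difference of 0.03 (interval -0.15 to 0.21, limma FDR 0.957).

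The 2 other ER sensors also had averaged genotype differences above 0. *Ern1*, which encodes IRE1, was at 8.08, 10.4 and 8.89 RPKM in Cort+/+ and 11.2 and 11.1 RPKM in Cort-/- under NX/NG, and at 9.86, 6.97 and 8.01 RPKM against 10.5 and 9.23 RPKM after OGD-R. Both Cort-/- libraries were above Cort+/+ under NX/NG but not after OGD-R, where Cort+/+ replicate 1 lay between them. Its averaged difference was 0.28 ± 0.11 (log2, SE; unadjusted p 0.0316, limma FDR 0.439), and without the 2 libraries low in ribosomal RNA it was 0.39. Those 2, Cort+/+ OGD-R replicate 1 and Cort-/- OGD-R replicate 3, were the libraries through which the genotypes overlapped after OGD-R. Leaving them out keeps 1 Cort-/- OGD-R library.

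*Atf6* was at 7.12, 7.17 and 8.12 RPKM in Cort+/+ and 8.37 and 9.03 RPKM in Cort-/- under NX/NG, and at 6.92, 6.49 and 7.59 RPKM against 8.397 and 7.13 RPKM after OGD-R. Again the genotypes were separated under NX/NG and overlapped after OGD-R, because Cort-/- replicate 3, which was low in ribosomal RNA, lay among the Cort+/+ libraries. The averaged difference was 0.18 ± 0.0749 (log2, SE; unadjusted p 0.0398, limma FDR 0.468).

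Among the targets of ATF4, 3 had an unadjusted limma p below 0.05 for the averaged genotype. The difference was above 0 for *Chac1* and *Asns* (limma FDR 0.362 and 0.457) and below 0 for *Phgdh* (limma FDR 0.289). *Chac1*, which degrades glutathione, was at 4.85, 4.47 and 5.65 RPKM in Cort+/+ and 5.49 and 5.35 RPKM in Cort-/- under NX/NG, and at 4.16, 3.97 and 3.59 RPKM against 5.53 and 4.75 RPKM after OGD-R. The Cort+/+ cells after OGD-R were the lowest group, with all 3 libraries below the other 7. The genotype difference after OGD-R was 0.39 ± 0.13 (log2, SE; unadjusted p 0.0277, limma FDR 0.978). *Asns*, asparagine synthetase, was at 16.6, 16.4 and 18.5 RPKM in Cort+/+ and 18.9 and 17.7 RPKM in Cort-/- under NX/NG, and at 14.2, 16.01 and 14.4 RPKM against 16.8 and 17.1 RPKM after OGD-R. Its genotypes were separated after OGD-R but not under NX/NG, and the averaged difference was 0.14 ± 0.0565 (log2, SE; unadjusted p 0.0360, limma FDR 0.457). Both genes hold the C/EBP-ATF element printed above.

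*Phgdh*, the first enzyme of serine synthesis, had the largest genotype difference of the members with more than 11 reads. It was at 39.4, 36.1 and 31.8 RPKM in Cort+/+ and 28.1 and 21.8 RPKM in Cort-/- under NX/NG, and at 42.0, 42.6 and 36.9 RPKM against 23.5 and 37.5 RPKM after OGD-R. In all, 3 of the 4 Cort-/- libraries were below every Cort+/+ library, and the fourth, Cort-/- OGD-R replicate 3, lay within the Cort+/+ range. The averaged difference was -0.49 ± 0.14 (log2, SE; unadjusted p 0.00765, limma FDR 0.289). Without that replicate the FDR was 0.0774, the lowest of any member in any comparison and setting.

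*Psat1*, the next enzyme of serine synthesis, was under NX/NG at 13.5, 13.3 and 12.5 RPKM in Cort+/+ against 11.5 and 11.4 RPKM in Cort-/- (-0.20 ± 0.0584, log2, SE; unadjusted p 0.0190, limma FDR 0.474). After OGD-R it was at 11.0, 12.4 and 10.7 RPKM in Cort+/+ and 10.1 and 13.3 RPKM in Cort-/-, and the groups overlapped. Its interaction was 0.22 (interval -0.15 to 0.59, limma FDR 1.0). *Shmt2* and *Mthfd2*, which carry serine carbons into mitochondrial folate metabolism, ranged from 14.2 to 17.6 RPKM and from 7.16 to 9.12 RPKM with averaged genotype differences of 0.09 and 0.10 (limma FDR 0.702 and 0.599). The 7 targets of the list thus did not move as a block, with differences from -0.49 to 0.26 and 4 above and 3 below 0.

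Of the 7 transcription factors and regulators, 4 had an averaged genotype difference below 0 and 3 above, with *Atf5* and *Nupr1* the 2 at an unadjusted limma p below 0.05. *Atf5*, which is translated under the same control as ATF4, was at 25.6, 28.4 and 23.9 RPKM in Cort+/+ and 21.3 and 20.04 RPKM in Cort-/- under NX/NG, and at 22.8, 25.1 and 18.3 RPKM against 19.3 and 21.5 RPKM after OGD-R. The genotypes were separated under NX/NG, by -0.33 ± 0.0876 (log2, SE; unadjusted p 0.0126, limma FDR 0.423), and overlapped after OGD-R. *Cebpb*, a partner of ATF4 on DNA, was at 4.28, 4.81 and 3.73 RPKM in Cort+/+ and 3.38 and 2.91 RPKM in Cort-/- under NX/NG, and at 4.58, 5.66 and 3.31 RPKM against 4.25 and 3.04 RPKM after OGD-R. It too was separated under NX/NG, by -0.43 ± 0.14 (log2, SE; unadjusted p 0.0279, limma FDR 0.524), and had as few as 54 reads in a library.

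*Nupr1* was at 10.1, 10.8 and 8.21 RPKM in Cort+/+ and 6.29 and 8.28 RPKM in Cort-/- under NX/NG, and at 11.2, 13.1 and 9.57 RPKM against 9.22 and 9.23 RPKM after OGD-R. The averaged genotype difference was -0.34 ± 0.12 (log2, SE; unadjusted p 0.0196, limma FDR 0.378), the groups overlapping slightly under NX/NG and being separated after OGD-R. *Trib3*, a pseudokinase that dampens ATF4, ranged from 4.33 to 6.33 RPKM and *Cebpg* from 6.63 to 9.21 RPKM, with averaged genotype differences of 0.07 and 0.02 (limma FDR 0.911 and 0.974).

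The ER folding genes had a difference below 0 in 11 of 14 cases under NX/NG and in 12 of 14 after OGD-R. Of these, *Hsp90b1* and *Pdia4* had an unadjusted limma p below 0.05 under NX/NG, as *Sdf2l1* did in the other direction, and after OGD-R 0 of the 14 did. Their median difference was -0.09 under NX/NG and -0.08 after OGD-R. Below 0 were 51.7% of all genes under NX/NG and 51.1% after OGD-R, 48% and 52.3% of the 13789 genes averaging at least 1 RPKM, and 54.8% and 63.7% of the 383 genes above 100 RPKM, a level that 5 of the 14 reached. Summed over the 14 genes, the level was 1252, 1268 and 1179 RPKM in Cort+/+ and 1145 and 1129 RPKM in Cort-/- under NX/NG, and 1238, 1306 and 1151 RPKM against 1070 and 1211 RPKM after OGD-R. The sums were separated under NX/NG and overlapped after OGD-R.

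*Hsp90b1*, the ER member of the HSP90 family, was at 184, 194 and 175 RPKM in Cort+/+ and 162 and 160 RPKM in Cort-/- under NX/NG, and at 185, 190 and 174 RPKM against 145 and 177 RPKM after OGD-R. The averaged difference was -0.19 ± 0.0752 (log2, SE; unadjusted p 0.0325, limma FDR 0.443). *Pdia4*, a protein disulfide isomerase, was at 76.3, 73.8 and 69.2 RPKM in Cort+/+ and 63.1 and 64.9 RPKM in Cort-/- under NX/NG, and at 78.5, 78.2 and 73.3 RPKM against 63.6 and 78.1 RPKM after OGD-R. In both genes Cort-/- OGD-R replicate 1 was far below the Cort+/+ libraries and replicate 3 was among them. *Canx*, which holds the ER stress element as *Hspa5* and *Hsp90b1* do, ranged only from 131 to 149 RPKM, with an averaged genotype difference of -0.02 (interval -0.14 to 0.11, limma FDR 0.955).

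**Figure D3:**
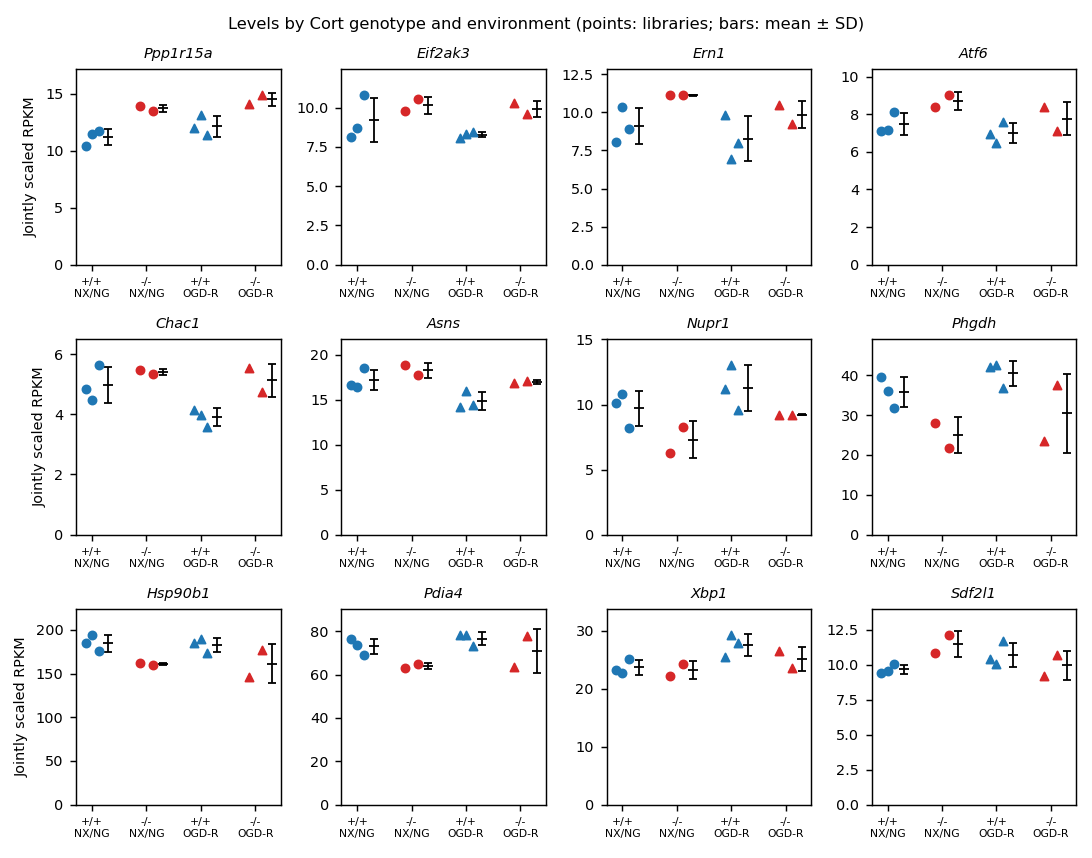
Jointly scaled RPKM of 12 members in every library, grouped by Cort genotype and environment, with linear axes from 0; points are libraries (blue Cort+/+, red Cort-/-, circles NX/NG, triangles OGD-R) and the bars beside them are mean ± SD (n = 3 for Cort+/+ and n = 2 for Cort-/-). Every Cort-/- library lies above every Cort+/+ library for Ppp1r15a, and the 2 Cort-/- OGD-R libraries lie far apart for Phgdh, at 23.5 and 37.5 RPKM.

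The level of several members moved with that of the fibroblast, mural and endothelial transcripts from library to library. The library with the least fibroblast signal was replicate 3 in Cort+/+ NX/NG, replicate 2 in Cort-/- NX/NG, replicate 3 in Cort+/+ OGD-R and replicate 1 in Cort-/- OGD-R. Each was also the lowest of its group in mural transcripts (1493, 1336, 1308 and 978 RPKM, in this order) and the highest in endothelial transcripts (1233, 1399, 1115 and 1356 RPKM). The same 4 libraries were the lowest of their groups for the sum of the folding genes, for the sum of the ISR factors and for the sum of its targets. This held gene by gene for 9 of 39 members (23.1%), *Atf5*, *Psat1*, *Phgdh*, *Shmt2*, *Sesn2*, *Hspa5*, *Hsp90b1*, *Hyou1* and *Calr*, against 8.62% of 14855 genes. It did not hold for *Ppp1r15a* (3 of 4 groups), *Ern1* (1 of 4) or *Eif2ak3*, *Atf6* and *Xbp1* (0 of 4). The count was chosen after the values were seen, *Pdgfra* and *Lum* were below 1 RPKM in every library, and the part of other cells in the genotype differences was not tested.

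**Figure D4:**
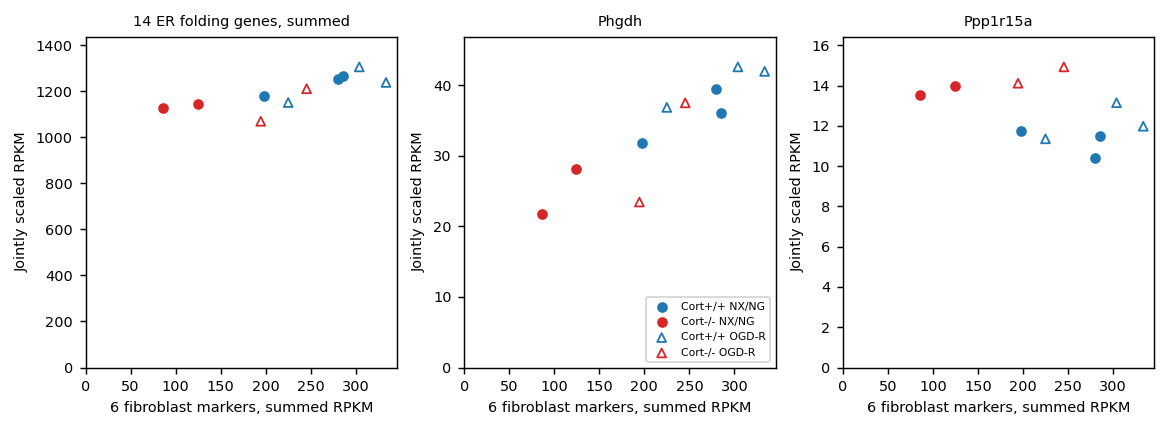
Summed RPKM of 6 fibroblast transcripts (x axis) against the summed RPKM of the 14 ER folding genes, Phgdh and Ppp1r15a (y axes, from 0), 1 point per library, blue for Cort+/+, red for Cort-/-, circles for NX/NG and open triangles for OGD-R. The folding sum spans 1070 to 1306 RPKM and Phgdh 21.8 to 42.6 RPKM, both lowest within each group in the library with the least fibroblast signal, while the 4 Cort-/- libraries are highest for Ppp1r15a.

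For the effect of OGD-R, the 2 tables were rescaled together from the recovered reads. In Cort+/+ BECs 5 of the 40 members (12.5%) had an unadjusted limma p below 0.05, against 5.48% of 27075 genes, with *Xbp1* and *Casp12* higher and *Asns*, *Psat1* and *Chac1* lower after OGD-R. In Cort-/- BECs there were 0, against 4.08% of 26523 genes, by limma and by limma-voom. Restricted to genes reaching 1 RPKM in 2 or more libraries, the share in Cort+/+ was 12.8% of 39 members, against 6.64% of 14450 genes. In Cort-/- it was 0% of 39 members, against 3.85% of 13998 genes. The median difference of the members was -0.01 in Cort+/+ and -0.00 in Cort-/-, as over all genes. The count of 5 in Cort+/+ was 0 without NX/NG replicate 1, 2 without NX/NG replicate 2, and 3 without replicate 3 of either environment. It was 4 without OGD-R replicate 2, all of them lower. In Cort-/- it was 1 without NX/NG replicate 2 and 7 without OGD-R replicate 1.

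The split depended on how the 2 tables were put on 1 scale. With the deposited RPKM, which the authors scaled table by table, 6 members were higher and 0 lower after OGD-R in Cort+/+ (*Atf4*, *Phgdh*, *Xbp1*, *Sdf2l1*, *Syvn1* and *Casp12*), and 1644 genes were higher and 426 lower at this p, in place of 814 and 671. In Cort-/- BECs the genes were 884 and 358 in place of 585 and 497. Averaged over genotypes the members were 8 higher and 0 lower in place of 3 and 2, and the genes 2428 and 479 in place of 1020 and 986. The median over all genes was then 0.05 on the log2 scale.

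Counted by library, the environments did not overlap in 6 of 39 members (15.4%) in Cort+/+, against 12.7% of 14450 genes, and in 9 of 39 (23.1%) in Cort-/-, against 34.2% of 13998 genes. *Asns* was the single member that was lower in every OGD-R library of its genotype in both genotypes (2.56%), as 5.1% of 13798 genes were separated in 1 direction in both.

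*Xbp1*, whose spliced messenger encodes a factor for folding and degradation genes, was at 23.2, 22.7 and 25.2 RPKM under NX/NG and 25.5, 29.3 and 27.8 RPKM after OGD-R in Cort+/+, and at 22.2 and 24.3 RPKM against 26.5 and 23.6 RPKM in Cort-/-. The environments were separated in Cort+/+, by 0.22 ± 0.0748 (log2, SE; unadjusted p 0.0257, limma FDR 0.881), and overlapped in Cort-/-, where the difference was 0.11 ± 0.105. The interaction was -0.11 (interval -0.39 to 0.18, limma FDR 1.0), so a different response of the genotypes was not shown. Spliced and unspliced *Xbp1* were not measured apart.

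*Casp12*, the murine ER-linked caspase, was at 8.31, 8.27 and 9.80 RPKM under NX/NG and 9.26, 12.1 and 13.4 RPKM after OGD-R in Cort+/+, and at 8.44 and 9.35 RPKM against 9.69 and 8.01 RPKM in Cort-/-. Only Cort+/+ OGD-R replicates 2 and 3 stood above the other 8 libraries. The difference in Cort+/+ was 0.38 ± 0.15 (log2, SE; unadjusted p 0.0408, limma FDR 0.881). It was 0.54 without OGD-R replicate 1, which was low in ribosomal RNA (unadjusted p 0.00321, limma FDR 0.441). Without NX/NG replicate 1 or 2, or without OGD-R replicate 2, no member, *Casp12* included, was higher at an unadjusted limma p below 0.05.

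*Chac1*, *Asns* and *Psat1*, with the levels given above, were lower after OGD-R in Cort+/+ BECs by -0.34 ± 0.12, -0.21 ± 0.0781 and -0.20 ± 0.0770 (log2, SE), with limma FDR 0.881 for each of the 3. In Cort-/- BECs the same differences were -0.08, -0.11 and 0.02. For all 7 targets of the integrated stress response the interaction was above 0, from 0.04 to 0.26, and 0 of the 7 had an unadjusted p below 0.05. Over all genes 50.1% were below 0 for the interaction, and 54.2% of those averaging at least 1 RPKM.

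Averaged over genotypes, 5 of the 40 members (12.5%) had an unadjusted limma p below 0.05 for OGD-R, against 7.34% of 27321 genes, namely *Nupr1*, *Xbp1* and *Syvn1* higher and *Asns* and *Chac1* lower. Restricted to genes reaching 1 RPKM in 2 or more libraries, it was 5 of 39 members (12.8%), close to the 10% of 14855 genes. *Syvn1*, the ubiquitin ligase HRD1 of ER-associated degradation, was at 8.44, 9.07 and 8.48 RPKM under NX/NG and 10.1, 9.75 and 8.69 RPKM after OGD-R in Cort+/+, and at 8.48 and 7.87 RPKM against 8.75 and 9.54 RPKM in Cort-/-. The environments were separated in Cort-/- and overlapped in Cort+/+, and the averaged difference was 0.14 ± 0.0606 (log2, SE; unadjusted p 0.0425, limma FDR 0.675). *Nupr1* was higher by 0.28 ± 0.12 (log2, SE; unadjusted p 0.0455, limma FDR 0.678). The count of 5 was 1 without replicate 1 of Cort-/- NX/NG, replicate 1 of Cort+/+ NX/NG or replicate 2 of Cort+/+ OGD-R. It was 3 without Cort-/- NX/NG replicate 2, 2 without Cort+/+ NX/NG replicate 3 and 8 without Cort-/- OGD-R replicate 1.

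**Figure D5:**
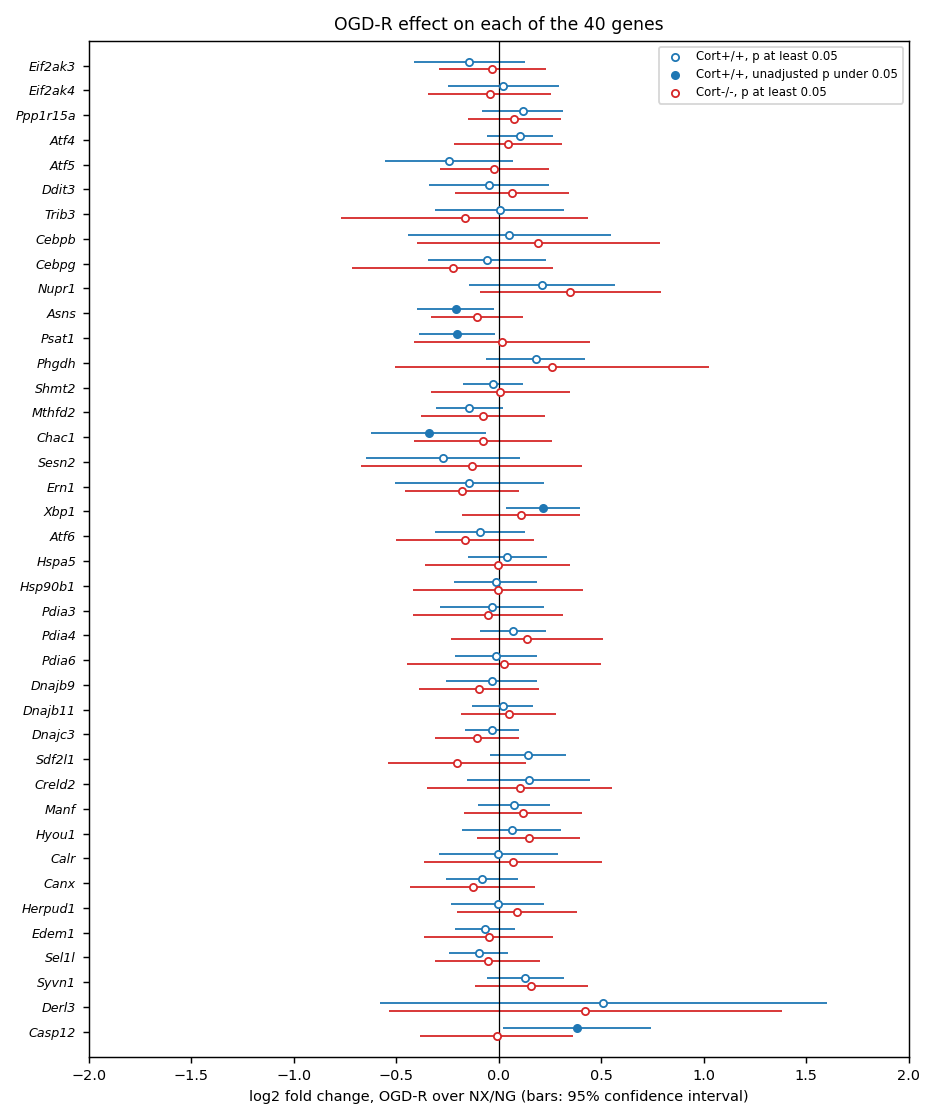
Log2 fold change of OGD-R over NX/NG for each of the 40 genes in Cort+/+ (blue) and Cort-/- (red), with 95% confidence intervals from limma; filled points have an unadjusted p below 0.05. The 5 filled points, Xbp1, Casp12, Asns, Psat1 and Chac1, are all of Cort+/+, and Derl3, with 1 to 11 reads, has the widest intervals.

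The interaction of genotype and OGD-R had an unadjusted limma p below 0.05 in 1 of 40 members (2.5%), against 2.85% of 27321 genes. Restricted to genes reaching 1 RPKM in 2 or more libraries, it was 1 of 39 members (2.56%), against 1.78% of 14855 genes. That gene was *Sdf2l1*, an ER co-chaperone, at 9.43, 9.56 and 10.04 RPKM under NX/NG and 10.4, 10.1 and 11.7 RPKM after OGD-R in Cort+/+, and at 10.8 and 12.1 RPKM against 9.22 and 10.7 RPKM in Cort-/-. Every OGD-R library was higher than the NX/NG libraries in Cort+/+ and lower in Cort-/-, and the interaction was -0.35 ± 0.14 (log2, SE; unadjusted p 0.0333, limma FDR 1.0). The count of 1 was 0 without Cort+/+ NX/NG replicate 1 or 2 and without Cort+/+ OGD-R replicate 3, and 2 without Cort+/+ OGD-R replicate 1. Where Cort-/- kept 1 library in an environment the counts are not given, and *Sdf2l1* did not keep such a p in all of those fits.

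The other 19 members besides *Derl3* had no unadjusted p below 0.05 in any of the 7 comparisons by limma. With limma-voom *Calr* and *Pdia3* had one under NX/NG, at -0.23 (unadjusted p 0.00397, FDR 0.170) and -0.10 (unadjusted p 0.0392, FDR 0.424), and *Calr* averaged, at -0.19 (unadjusted p 0.0230, FDR 0.331). Their averaged differences ranged from -0.19 to 0.10 for genotype and from -0.20 to 0.12 for OGD-R. They included *Sesn2*, a regulator of nutrient signalling, the co-chaperones *Dnajb9*, *Dnajb11* and *Dnajc3*, the secreted factors *Manf* and *Creld2*, and the degradation genes *Herpud1*, *Edem1* and *Sel1l*. *Derl3* was too low to compare.

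Other genes of the same pathways were taken from 2 lists that do not hold the members. Of 37 further genes of the integrated stress response, 1 (2.7%) had an unadjusted limma p below 0.05 for the averaged genotype, namely *Atf3* at 0.33 ± 0.10 (log2, SE; limma FDR 0.311), a factor that ATF4 is known to induce. Of 40 further ER genes 3 (7.5%) did, with *Edem2* higher at 0.18 and *Creb3l1* and *Selenok* lower at -0.47 and -0.15. None was called.

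For OGD-R averaged over genotypes, 5 of the 37 further genes of the integrated stress response (13.5%) had such a p, all of them lower, and they comprised the amino acid transporter *Slc7a5* at -0.34 ± 0.0849 (log2, SE; limma FDR 0.453), the transfer RNA exporter *Xpot* at -0.14, and the aminoacyl-tRNA synthetases *Lars*, *Iars* and *Nars* at -0.13, -0.16 and -0.11. Of the 40 further ER genes 6 (15%) did, with *Os9*, *Selenok*, *Selenos*, *Creb3l1* and *Ssr2* higher, by 0.19 to 0.37, and *Sec63* lower, at -0.16. *Os9*, a lectin of ER-associated degradation, was at 44.0, 45.3 and 45.0 RPKM under NX/NG and 54.7, 53.6 and 50.1 RPKM after OGD-R in Cort+/+, and at 45.5 and 48.4 RPKM against 53.3 and 52.9 RPKM in Cort-/-. All 5 OGD-R libraries were above all 5 NX/NG libraries, by 0.21 ± 0.0442 (log2, SE; unadjusted p 0.00134, limma FDR 0.383). Separation in 1 direction within both genotypes, a looser rule, was met by 5.1% of 13798 genes.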

How the data were processed

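Reads had been processed with reanalyzerGSE, the authors' own software, and the submitters' processing notes name edgeR. Aligner, genome build and annotation are not given in the sources used here. The deposited values are RPKM, which the authors scaled within each environment's table. Separate lists of genes that the authors called between the genotypes were not used. RPKM times gene length gave whole multiples of 1 step for at least 99.9958% of values (tolerance 0.05), so reads were recovered. The 27321 genes shared by both tables were rescaled by trimmed mean of M values. Per-library values in the text are on this joint scale, apart from the ranges of single mural transcripts. Within an environment the joint scale differs from the deposited one by a nearly constant factor (1.02 to 1.03 under NX/NG, 0.974 to 0.975 after OGD-R).

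Genes above 0 were tested with limma 3.58.1 in R 4.3.3 (trend, log2(RPKM + 0.1)): the genotype within each environment on the deposited RPKM, the others on the joint scale, the averages and the interaction over all 4 groups. The test was run on simulated reads for the genotype under NX/NG and for the averaged genotype only. Those reads had the same spread in every gene and no differences in cell content or ribosomal RNA, so such differences were not checked. Intervals are at 95%. Members and lists were chosen with earlier results of these data known. Named with values are Atf4, Ddit3, Hspa5, Xbp1, Atf6, Ern1, Eif2ak3, members at an unadjusted p below 0.05 in any comparison, and members separated in both environments or genotypes. Cort+/+ OGD-R replicate 1, which the study's heatmaps leave out without a stated reason, was kept. Alternatives were another pseudocount, filter, scaling or tool, a replicate block, the ribosomal RNA split, and each library left out. P-values treat each library as a separate pool of mice. Whether NX/NG and OGD-R libraries of the same number shared a pool is not known. If they did, the main fits over both environments leave that pairing out.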

Additional observations from a re-analysis of the deposited data

Results flagged for a closer look

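Sdf2l1 was marked because every Cort+/+ library was higher after OGD-R and every Cort-/- library was lower. Its differences were 0.14 (log2, unadjusted p 0.111) in Cort+/+ and -0.20 (unadjusted p 0.167) in Cort-/- BECs. The test of the difference itself, the interaction in limma, gave -0.35 (unadjusted p 0.0333, FDR 1.0), and over 18 alternatives it ranged from -0.47 to -0.24. Of 13798 genes with at least 1 RPKM, 0.493% had the environments separated in opposite directions in the 2 genotypes. Its libraries held 123 to 166 reads.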

How the results depend on the processing

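No member passed the FDR threshold in any setting, and of the named members' differences recomputed under the alternatives 1977 kept and 123 changed their sign, none of them past that threshold. Counts of all genes called, in place of 0 for genotype under NX/NG, 0 after OGD-R and 15 averaged, were 20, 0 and 8 with a pseudocount of 1, 124, 5 and 208 with limma-voom, and 4 and 7 for the first and second with all 4 groups in one fit. The averaged count was 32 with the filter on low values. In place of 9 for OGD-R in Cort+/+, 6 averaged and 3 for the interaction, they were 5, 1 and 0 with a pseudocount of 1, and 1, 20 and 0 with limma-voom. The filter gave 0 for OGD-R in Cort+/+ and 0 for the interaction, the ribosomal RNA term 0, 1 and 0, leaving out the 2 libraries low in ribosomal RNA 0, 0 and 0, and one fit of all groups 0 in Cort+/+.

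Members at an unadjusted p below 0.05 were 5 in place of 8 under NX/NG with all groups in one fit, and with limma-voom 3 in place of 5 for OGD-R in Cort+/+, 3 in place of 5 averaged and 0 in place of 1 for the interaction. The deposited scale gave 8 in place of 5 for OGD-R averaged, and the ribosomal RNA term 1 in place of 0 in Cort-/-.

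With each library left out in turn, genes called ranged from 0 to 683 for genotype under NX/NG, 0 to 710 after OGD-R and 7 to 59 averaged, from 0 to 0 for OGD-R in Cort+/+, 0 to 6 averaged, and 0 to 8 for the interaction. The highest counts for either environment arose where Cort-/- kept 1 library, which is then assumed to vary as Cort+/+ does. Members ranged from 1 to 12, 1 to 5 and 3 to 13 for genotype, 0 to 5 in Cort+/+, 0 to 7 in Cort-/- and 1 to 8 averaged for OGD-R, and 0 to 2 for the interaction.

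For libraries with the same replicate number, the deviations from the group means correlated at -0.39 to 0.13 over 12 pairs. Where a group has 2 libraries these deviations mirror each other. The correlations therefore cannot show whether libraries of one number came from the same pool of mice. With a replicate block, genes called were 4 in place of 15 for the averaged genotype and 0 for OGD-R in Cort+/+, OGD-R averaged and the interaction, and members were 0 in place of 3 for genotype after OGD-R, 7 in place of 11 averaged, and 2 in place of 5 for OGD-R averaged. In Cort-/- the block could not be fitted for OGD-R. With 2 Cort-/- libraries per environment, intervals were wide, and genes with few reads, such as Derl3, gave no usable comparison.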
